A study of Mus musculus with 77 samples.

Results

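The room-air-only p53 peaks of B6 macrophages are the intervals that were called for the transcription factor p53 in C57BL/6J (B6) bone-marrow-derived macrophages (BMDM) in room air and that share no base with an interval called in the same cells after hyperoxia. Of the 4107 intervals in the room-air list, 3809 met this rule, and the other 298 overlapped a hyperoxia peak by at least 1 bp. The hyperoxia list held 3500 intervals, of which 3202 overlapped no room-air peak, and all 10 peak lists of the series together held 11305 intervals. Macrophages were grown from bone marrow and kept for 24 h in hyperoxia or in room air. Their p53-bound DNA was recovered by chromatin immunoprecipitation and sequenced (ChIP-seq), and poly(A) RNA of such macrophages was sequenced. The RNA libraries came from cells of a Trem2 knockout (KO), of the inbred strain DBA/2J (DBA) and of B6, with 2 hyperoxia and 2 room-air libraries of each genotype. ChIP-seq lists were used for hyperoxia and room-air BMDM of KO and of B6, and for lungs of KO, DBA and B6 mice kept in 75% oxygen or in room air to postnatal day 14. Each list pools 2 ChIP libraries of its group, so no interval has a replicate of its own. The KO BMDM ChIP libraries carry the knockout only in their titles, their genotype field reads C57BL/6J, and they were grouped by title. The sources used here do not say which part of Trem2 the knockout lacks, or whether replicates came from separate animals. The p-values therefore reflect only how far libraries of a group lie apart, which may be technical. Except where stated, that spread was pooled over all 6 groups of BMDM RNA libraries, so it is not the spread of the B6 libraries alone.

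p53, the product of Trp53, binds DNA as a tetramer that recognises a pair of similar half-sites. After DNA damage or oxidative stress it accumulates and activates genes for cell-cycle arrest, apoptosis and repair, among them the CDK inhibitor gene Cdkn1a and the gene of its own inhibitor, Mdm2. In unstressed cells Mdm2 keeps p53 scarce. Trem2 encodes a receptor on macrophages and microglia that senses lipids and signals through the adaptor Tyrobp.

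Sequences of high-scored and of named promoter members are shown so that they can be read for p53 sites. Promoter windows were taken from RefSeq (GRCm38.p6, the assembly of mm10) and reach from 250 bases before to 50 bases after a start site. Of 32851 windows, 169 were overlapped by at least 100 bases by a room-air-only peak. These windows belong to 160 genes and lie on 143 of the peaks. Each line gives the bases of the window that the peak covers, on the strand of the gene. The first 5 are the highest-scored members on such windows, and Dtymk, Rps27l, Nuf2 and C1qb are genes described further below. Capitals mark matches, on either strand, to the short motifs searched.
Itpkb (chr1:180330233-180330433, plus strand): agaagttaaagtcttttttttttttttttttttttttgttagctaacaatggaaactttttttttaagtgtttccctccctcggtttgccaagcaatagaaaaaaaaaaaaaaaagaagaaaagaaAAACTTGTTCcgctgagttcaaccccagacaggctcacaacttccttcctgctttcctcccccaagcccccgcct
Snhg15 (chr11:6528711-6528906, minus strand): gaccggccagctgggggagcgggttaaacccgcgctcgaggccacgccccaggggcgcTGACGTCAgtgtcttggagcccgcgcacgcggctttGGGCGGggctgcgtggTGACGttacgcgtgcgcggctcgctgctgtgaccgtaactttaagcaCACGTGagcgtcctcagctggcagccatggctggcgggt
Swt1 (chr1:151428386-151428573, minus strand): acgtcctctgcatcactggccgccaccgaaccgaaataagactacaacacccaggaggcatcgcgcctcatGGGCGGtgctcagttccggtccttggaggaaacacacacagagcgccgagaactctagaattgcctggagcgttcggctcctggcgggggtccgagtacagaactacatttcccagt
Clec4a3 (chr6:122952541-122952693, plus strand): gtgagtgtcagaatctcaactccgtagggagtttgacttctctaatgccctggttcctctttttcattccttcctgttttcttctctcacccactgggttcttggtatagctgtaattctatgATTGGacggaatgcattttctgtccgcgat
Ifitm6 (chr7:141016843-141017000, minus strand): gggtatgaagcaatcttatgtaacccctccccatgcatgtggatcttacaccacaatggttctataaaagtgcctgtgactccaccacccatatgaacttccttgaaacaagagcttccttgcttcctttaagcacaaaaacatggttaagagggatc
Dtymk (chr1:93801885-93802034, minus strand): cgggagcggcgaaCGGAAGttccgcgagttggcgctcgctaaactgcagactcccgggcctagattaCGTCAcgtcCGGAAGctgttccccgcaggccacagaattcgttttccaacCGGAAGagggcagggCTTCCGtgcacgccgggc
Rps27l (chr9:66945902-66946102, plus strand): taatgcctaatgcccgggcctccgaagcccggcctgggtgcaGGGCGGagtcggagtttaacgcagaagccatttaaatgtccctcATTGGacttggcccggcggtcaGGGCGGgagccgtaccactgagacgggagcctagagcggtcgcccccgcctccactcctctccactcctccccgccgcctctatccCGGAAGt
Nuf2 (chr1:169531523-169531714, minus strand): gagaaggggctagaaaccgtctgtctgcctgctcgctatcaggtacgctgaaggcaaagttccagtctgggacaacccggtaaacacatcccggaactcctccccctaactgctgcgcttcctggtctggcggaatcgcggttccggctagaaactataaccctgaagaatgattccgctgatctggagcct
C1qb (chr4:136886210-136886410, minus strand): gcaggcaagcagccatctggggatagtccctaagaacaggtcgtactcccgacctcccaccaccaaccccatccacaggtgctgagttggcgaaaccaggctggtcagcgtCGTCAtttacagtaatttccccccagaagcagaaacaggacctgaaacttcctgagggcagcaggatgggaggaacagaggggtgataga
In the Itpkb run the capitals are a p53 half-site, the only one in these 9 runs. The Snhg15 run holds a GC box (GGGCGG), an E-box (CACGTG) and cyclic-AMP response element cores (CRE, TGACG). The Dtymk run holds ETS cores (CGGAAG) and a CRE core, and the Rps27l run holds GC boxes, an ETS core and a CCAAT box. The Ifitm6 and Nuf2 runs hold none of the motifs searched.

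For comparison, 2 promoters under peaks present in both lists, chosen after their values were seen, are printed with their p53 full site in capitals.
Cdkn1a (chr17:29090839-29091028, plus strand): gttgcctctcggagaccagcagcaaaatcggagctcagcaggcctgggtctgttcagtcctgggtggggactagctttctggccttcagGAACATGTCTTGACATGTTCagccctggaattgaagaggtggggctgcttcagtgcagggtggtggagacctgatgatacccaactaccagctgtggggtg
Ccng1 (chr11:40755387-40755536, minus strand): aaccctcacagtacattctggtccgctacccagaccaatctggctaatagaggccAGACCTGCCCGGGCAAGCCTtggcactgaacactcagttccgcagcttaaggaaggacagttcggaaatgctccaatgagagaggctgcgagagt
The Cdkn1a peak held 116 tags in room air and the Ccng1 peak 35 tags. Ccng1 encodes cyclin G1, a p53 target gene.

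A p53 full site, 2 adjacent half-sites of 10 bases each with up to 2 mismatches outside their cores, was found in 0 of the 169 windows under room-air-only peaks, which allows a share of up to 1.78%. That limit treats the windows as independent, although they lie on 143 peaks, so it may be too low. The full site was found in 6 of 25 windows (24%) under peaks in both lists, in 8 of 102 windows (7.84%) under hyperoxia-only peaks and in 0.326% of all promoter windows. With up to 3 mismatches the count under room-air-only peaks was still 0, against 10 under peaks in both lists (40%), 11 under hyperoxia-only peaks (10.8%) and 1.38% of all windows. At both mismatch limits the share of all windows lies below the 1.78% that a count of 0 allows, so no difference from promoters at large was detectable. A single half-site occurred in 8.88% of windows under room-air-only peaks, in 52% under peaks in both lists, in 12.7% under hyperoxia-only peaks and in 8.36% of all windows. Room-air-only windows therefore held half-sites at about the share of promoters at large.

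Some motifs common at promoters were more frequent under room-air-only peaks than in promoters at large. The GC box was present in 72.2% of the 169 windows, against 35.7% of all windows. The ETS core was present in 36.7% against 16.9% (CGGAAG), the CRE core in 36.1% against 20.8%, and the YY1 core (GATGGCG) in 8.28% against 3.49%. CCAAT boxes were found in 33.7% against 37.4%, and a core of PU.1 (GAGGAAG), the myeloid lineage factor, in 14.8% against 13.6%. Under hyperoxia-only peaks the shares were 49% for the GC box, 27.5% for the ETS core, 29.4% for the CRE core and 6.86% for the YY1 core, all of them also above those of all windows. The median base composition was 62% G and C under room-air-only peaks, 58% under peaks in both lists, 60.2% under hyperoxia-only peaks and 52.7% in all windows. A GC-rich window holds GC-rich words more often, and their separate part was not tested. Motif matches describe the letters only, and windows of neighbouring or divergent genes can share bases.

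Room-air-only peaks were small. The score of a peak is its number of sequenced tags scaled to 10 M, and since the header gives the library's 7.76 M tags, whole tags could be recovered for 100% of the scores. Room-air-only peaks held a median of 10 tags (quartiles 8 and 12, range 5 to 99), peaks in both lists a median of 17 tags, and hyperoxia-only peaks a median of 10 tags. A count of 10 tags has a 95% Poisson interval of 4.8 to 18.4 tags, which covers counting error only. The header gives 8 tags as the calling threshold and 0.776 tags as the number expected in an interval of this size, and some listed scores correspond to fewer tags than that threshold. Of the room-air-only peaks, 80% had at most 12 tags, against 30.9% of peaks in both lists and 73% of hyperoxia-only peaks. At least 20 tags were held by 104 room-air-only peaks (2.73%), by 121 peaks in both lists (40.6%) and by 316 hyperoxia-only peaks (9.87%). Both B6 lists had the same threshold, from 7.85 M tags in hyperoxia and 7.76 M in room air, and the share of tags lying in peaks was 0.76% in hyperoxia and 0.64% in room air.

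**Figure D1:**
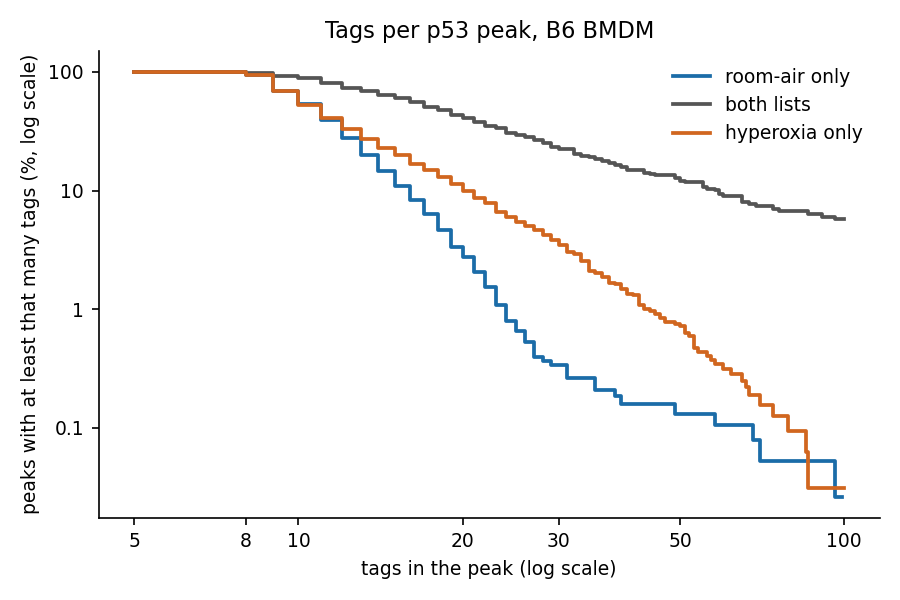
Share of p53 peaks (vertical axis, percent, log scale) with at least the number of tags on the horizontal axis (log scale, drawn to 100 tags), for room-air-only peaks, peaks in both lists and hyperoxia-only peaks of B6 BMDM. At 20 tags the lines stand at 2.73% for room-air-only peaks, 40.6% for peaks in both lists and 9.87% for hyperoxia-only peaks.

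Membership followed the tag count closely. Among room-air peaks with 5 to 8 tags, 98.3% had no hyperoxia counterpart, and among those with 13 to 15 tags 91.8%. The share was 62.8% at 20 to 29 tags, 20.5% (8 of 39) at 30 to 49 tags and 12.2% (5 of 41) at 50 tags or more. In the hyperoxia list the corresponding shares without a room-air counterpart were 99.6%, 92.4%, 79.8%, 62.9% and 15.6%. Most weak intervals of either list were thus found in that list alone, while most room-air peaks with 30 tags or more were found in both. These values chose the members or come from the same pair of lists, and they are given as a description.

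**Figure D2:**
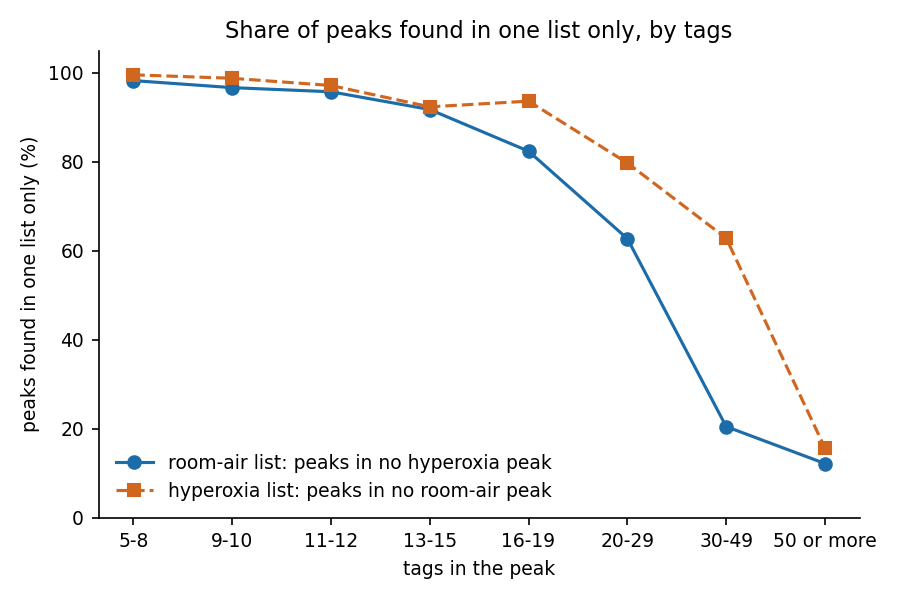
Share of peaks found in 1 list only (vertical axis, percent) by the number of tags in the peak (horizontal axis), for the room-air list and the hyperoxia list of B6 BMDM. The room-air line stands at 98.3% at 5 to 8 tags and at 12.2% at 50 tags or more.

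The rule drew a narrow line at few places. The members closest to a hyperoxia peak lay 40615 bp after the start of Plxna2, a semaphorin receptor gene (12 tags, abutting a hyperoxia peak with a gap of 0 bp), near P2ry6, a nucleotide receptor gene (21 tags, gap 12 bp), and 426 bp after the start of Rdm1 (13 tags, gap 21 bp). Just outside the rule were peaks near Oas1g (7 tags, overlap 2 bp), Mtdh (11 tags, overlap 21 bp) and 4921513I03Rik (21 tags, overlap 23 bp). In all, 35 members (0.919%) had a hyperoxia peak within 500 bp and 339 (8.9%) within 10 kb, and the median gap was 101086 bp. The 298 room-air peaks in both lists overlapped their partner by a median of 182 bp.

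The highest-scored members fell into distinct kinds of places. On unplaced sequences, an interval of Un_JH584304 held 99 tags and an interval of Un_GL456389 held 95 tags. The first lay 5212 bp from a hyperoxia peak, and the sequence of the second held no hyperoxia peak. On chromosome 9, 5 members between 3005832 and 3036654 lay near Mir101c, a microRNA gene, with 25 to 69 tags each, and this was the only chain of 4 or more members spaced within 10 kb. These 5 members lay only 269 to 3142 bp from a hyperoxia peak. On chromosome 4, an interval 32262 bp after the start of Cdk5rap2, a centrosome protein gene, held 67 tags and lay 2047141 bp from a hyperoxia peak. Elsewhere the members were lower. An interval near Ptafr, the gene of the platelet-activating factor receptor, held 37 tags. Intervals near Ftl1, the ferritin light chain gene, and Plekho2 held 34 tags each. Intervals near Fyb, an immune-cell adaptor gene, and Pygb, a glycogen phosphorylase gene, held 30 tags each. From the Ptafr interval to the Pygb interval, gaps to a hyperoxia peak were 8867 bp (Ftl1) to 182152 bp (Fyb). Members within 10 kb of a start site and among the 10 highest such included those at Rnu11 (28 tags, 99 bp after the start), Amn1 (27 tags), Csf1r, Cd84 and Cd300a (26 tags each), and Pltp (25 tags). The Rnu11 member lay 177 bp from a hyperoxia peak, and those at Amn1, Csf1r, Cd84, Cd300a and Pltp lay 47427 bp or more from one. Csf1r encodes the receptor for the macrophage growth factor CSF1, Cd84 and Cd300a encode leukocyte surface receptors, and Pltp encodes a phospholipid transfer protein.

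Most members were distal. A start site lay within 1 kb of 303 members (7.95%, exact 95% interval 7.11 to 8.86%), of 30 peaks in both lists (10.1%) and of 205 hyperoxia-only peaks (6.4%). Within 10 kb the shares were 30.5% of room-air-only peaks (exact 95% interval 29.1 to 32%), 37.9% of peaks in both lists and 27.5% of hyperoxia-only peaks. The median distance to a start site was 22115 bp for room-air-only peaks, 17168 bp for peaks in both lists and 24256 bp for hyperoxia-only peaks. Within 10 kb, 568 members lay before and 595 after the start. The share at promoters varied with tag number, from 4.74% of members with at most 10 tags to 12% of those with 11 to 15 tags and 15.9% of those with 16 or more. Hyperoxia-only peaks had 3.02%, 11.4% and 11% in the same ranges. Members were spread over all placed chromosomes, from 1 interval on Y to 347 on chromosome 2, and 3490 of them stood alone at a spacing of 10 kb.

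Few members recurred in other cells. The KO hyperoxia list overlapped 8 members (0.21%), 101 peaks in both lists (33.9%) and 14 hyperoxia-only peaks (0.437%). The KO room-air list overlapped 18 members (0.473%, exact 95% interval 0.28 to 0.746%), 38 peaks in both B6 lists (12.8%) and 5 hyperoxia-only peaks (0.156%). The 8 members were 0.606% of the 1320 intervals of the KO hyperoxia list, and the 18 were 1.43% of the 1263 intervals of the KO room-air list. Any of the 6 lung lists overlapped 4 members (0.105%), 74 peaks in both lists (24.8%) and 58 hyperoxia-only peaks (1.81%). The B6 room-air lung list, with 147 intervals, overlapped 0 members, which allows a share of up to 0.0788%. The KO lists came from 5.78 M tags in hyperoxia and 5.57 M in room air, fewer than either B6 list, and 0.25% of these tags in hyperoxia and 0.23% in room air lay in peaks.

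**Figure D3:**
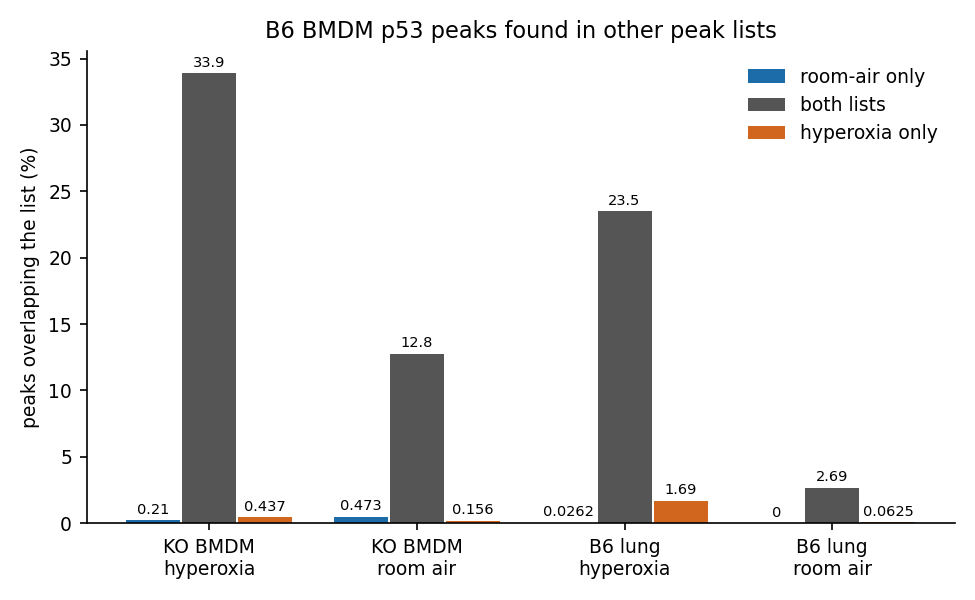
Share of room-air-only peaks, peaks in both lists and hyperoxia-only peaks of B6 BMDM (vertical axis, percent) that overlap a peak of the KO BMDM and B6 lung lists (horizontal axis). Room-air-only peaks stand at 0.21% in the KO hyperoxia list and 0.473% in the KO room-air list, and peaks in both lists at 33.9% in the KO hyperoxia list and 12.8% in the KO room-air list.

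Tag number bears on this comparison. With 20 tags or more, 11 of 104 members (10.6%) were in the KO room-air list, against 23 of 121 peaks in both lists (19%) and 0 of 316 hyperoxia-only peaks, which allows a share of up to 0.949%. Of these 11 members, 8 lay on unplaced sequences or in the first 3.1 Mb of chromosome 9. Without those places the counts at 20 tags or more were 3 of 96 members (3.125%) and 13 of 110 peaks in both lists (11.8%), and hyperoxia-only peaks stayed at 0 of 316. With 11 to 15 tags, 4 of 1196 members (0.334%) were there, against 10 of 73 peaks in both lists (13.7%). Of the members in the KO room-air list, the strongest were those on unplaced sequences, near Mir101c and near Cdk5rap2. The interval of Un_JH584304 near Pisd-ps3, 98033 to 98233, had a KO hyperoxia score of 156 and a KO room-air score of 160, against 128 in the B6 room-air list. The Cdk5rap2 interval had a KO room-air score of 79, against 86 in B6 room air, and was in no KO hyperoxia peak. Other members in the KO room-air list lay near Axin2, a Wnt pathway inhibitor gene (21 tags), Rab10os (21 tags), and Fcho2 and Ptger4, a prostaglandin E2 receptor gene (12 tags each). Over all tag numbers, without the 11 members in those places, 3 of 3798 (0.079%) were in the KO hyperoxia list and 10 (0.263%) in the KO room-air list. The same places held 12 peaks in both lists and 0 hyperoxia-only peaks. Among members outside them, the strongest that were absent from the KO room-air list were those near Ptafr, Ftl1, Plekho2, Fyb and Pygb, with 30 to 37 tags.

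Members at promoters lay at genes that macrophages express. TPM, the authors' expression unit, is scaled for transcript length and library size, and levels here are means of the B6 room-air libraries. Of the 342 genes with a start site within 1 kb of a member, 86.5% reached 1 TPM. The share was 83.9% of the 31 genes at peaks in both lists, 80% of the 230 genes at hyperoxia-only peaks and 45% of all 24940 genes in the table. The median was 12.4 TPM for genes at members, 13.2 TPM at peaks in both lists, 9.16 TPM at hyperoxia-only peaks and 0.289 TPM over all genes. By B6 room-air level, the share of genes with a member within 10 kb was 2.18% of genes below 0.1 TPM, 10.2% of genes at 10 to 50 TPM and 13% of genes at 100 TPM or more. Hyperoxia-only peaks had 1.72%, 6.45% and 8.33% in the same ranges. The gene nearest to the most members was 1700019E08Rik, with 9 members and 7 hyperoxia-only peaks, and it was listed at 0 TPM in B6. Mef2c had 8 members and 2 hyperoxia-only peaks. With 7 members each followed the potassium channel gene Kcnj2 (4 hyperoxia-only peaks), Runx1 and 5430437J10Rik (1 each), the last of them below 1 TPM in every B6 library. Gm20125, at 0 TPM, had 6 members and 8 hyperoxia-only peaks, Foxp1 had 6 and 3, and Zeb2 had 6 and 2. Mef2c, Runx1, Foxp1 and Zeb2 encode transcription factors. No count was scaled for the length of the locus.

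Gene lists written from general knowledge gave the following counts of genes with a member within 10 kb, beside 5.87% of all genes in the table. The shares of all genes were 0.529% for peaks in both lists and 4.3% for hyperoxia-only peaks. Of 20 macrophage identity genes, 7 (35%) had a room-air-only peak, 3 (15%) a peak in both lists and 3 (15%) a hyperoxia-only peak. Of 20 antioxidant genes that the factor NRF2 controls, 5 (25%) had a room-air-only peak. A peak in both lists lay near 1 of them (5%), and a hyperoxia-only peak near 2 (10%). Of 40 p53 target genes, 3 (7.5%) had a room-air-only peak, 16 (40%) a peak in both lists and 13 (32.5%) a hyperoxia-only peak. The count was 3 of 30 for cell-cycle genes and 0 of 20 for inflammatory targets of NF-kB. Within 50 kb, 15 of the 20 macrophage genes (75%) had a member, against 21.9% of all genes and 40.6% of the 828 genes at 100 TPM or more in B6 room air. Peaks in both lists lay within 50 kb of 25% of the macrophage genes, against 1.91% of all genes. Hyperoxia-only peaks lay there for 35%, against 17.65%.

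Among macrophage identity genes, the member at Tyrobp held 23 tags and lay 936 bp before the start, and the member at Itgam, which encodes integrin CD11b, held 18 tags and lay 799 bp after it. C1qb and C1qc encode chains of complement component C1q and shared a member of 14 tags, 133 bp before the start of C1qb. The member at Csf1r lay 3143 bp after the start. The member at Fcgr1, the gene of a high-affinity antibody receptor, held 16 tags and lay 6780 bp before the start. A member of 16 tags lay at chromosome 17, 48354301 to 48354501, which is 8000 bp after the start of Trem2 and beyond the end of that transcript at 48352276. The start site nearest to that interval was not that of Trem2 but that of Treml1. Among antioxidant genes, members lay 492 bp before the start of Txnrd1, the thioredoxin reductase gene (14 tags), 144 bp after the start of Gsr, the glutathione reductase gene (8 tags), and near Ftl1 (34 tags), Osgin1 (13 tags) and Cat, the catalase gene (9 tags). Among p53 targets, the Ftl1 interval also lay within 10 kb of the start of Bax, a pro-apoptotic gene, at 9385 bp. The others were Pidd1 (12 tags) and the kinase gene Plk2 (11 tags). Among cell-cycle genes, members lay near Ccna2 (cyclin A2, 9 tags), Birc5 (survivin, 12 tags) and Rrm1 (a ribonucleotide reductase subunit, 12 tags).

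The RNA libraries held an estimated 14.8 to 47.4 M reads each, and the listed transcripts summed to 529220 to 555113 TPM. The knockout was visible in its own gene. Trem2 measured 252.1 and 243.2 TPM in KO hyperoxia and 235.5 and 239.5 TPM in KO room air, against 908 and 917 TPM in B6 hyperoxia and 948 and 962 TPM in B6 room air. The 8 macrophage markers were all above 1 TPM in every group and summed to 18703 to 24599 TPM in B6. Lymphocyte and erythroid markers summed to under 1 TPM in every library, and neutrophil markers to 2.25 to 93.6 TPM. The 5 stromal markers summed to 24.7 to 110.2 TPM in KO, to 30.6 to 91 TPM in DBA and to 0.069 to 0.649 TPM in B6. B6 and KO RNA columns carry different date codes, so genotype and date code cannot be told apart in the comparison of KO with B6. DBA columns carry the date code of KO. Column names also hold a mark, which is MF or F within each B6 group and MF in all KO and DBA columns.

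Hyperoxia changed gene expression widely in B6 macrophages, mostly downward, and genes at members followed that pattern. By limma on log2(TPM + 1), 28.5% of the 12320 genes tested were called at adjusted p < 0.05, 5.68% higher and 22.8% lower in hyperoxia. Of the 342 genes within 1 kb of a member, 305 passed the filter on low values, and 10 of these (3.28%) rose and 86 (28.2%) fell. Together that was 31.5% of the tested members' genes, close to the share of all genes. Their median log2 fold change was -0.16, against -0.13 over all genes. Of 28 tested genes at peaks in both lists, 9 rose and 7 fell, and of 197 at hyperoxia-only peaks, 23 rose and 51 fell. Quantile normalization moved the median of all genes to 0.01, and 26 of the 305 genes were then higher and 44 lower, against 1269 and 1306 of all genes. With only the 4 B6 libraries in the fit 26 of 297 tested were called (8.75%), against 8.9% of all genes. Without the B6 room-air library marked MF, the median log2 fold change was -0.13 for the 305 genes and -0.1 over all genes. Neutrophil markers summed to 3.25 to 7.44 TPM in B6 hyperoxia and 25.5 to 44.4 TPM in B6 room air, and their part in these counts was not tested.

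**Figure D4:**
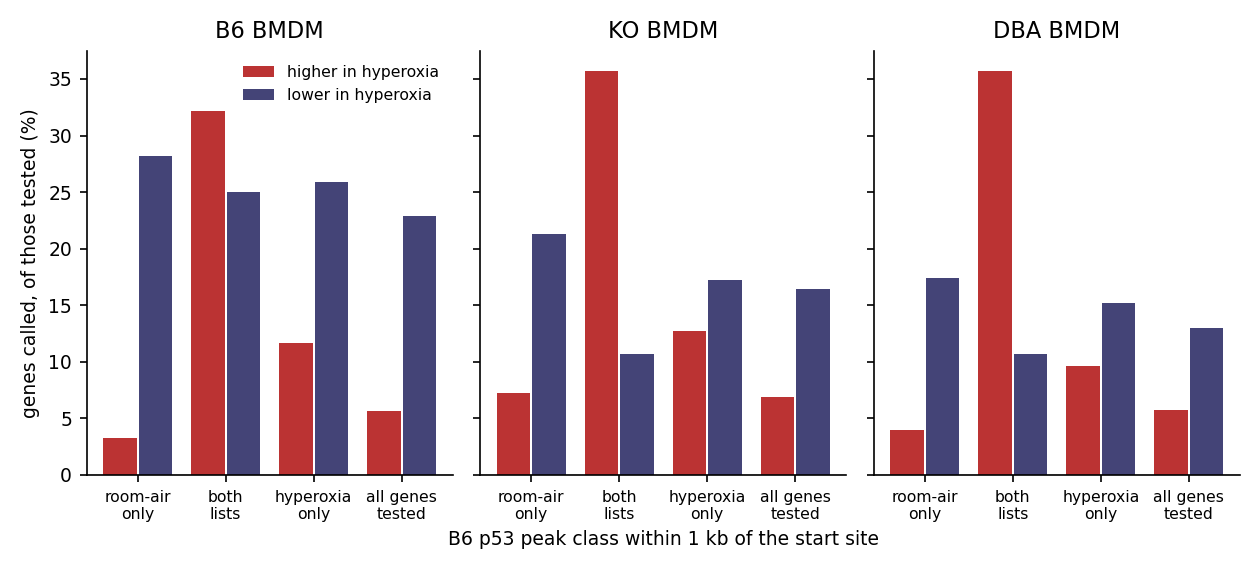
Share of tested genes called higher or lower in hyperoxia (vertical axis, percent, limma adjusted p < 0.05) by the class of B6 p53 peak within 1 kb of the start site and for all genes tested (horizontal axis), in BMDM of B6, KO and DBA. In B6, genes at room-air-only peaks stand at 3.28% higher and 28.2% lower, beside 5.68% and 22.8% of all genes.

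Of the 20 NRF2 genes tested 15 rose and 1 fell, and all 5 with a member within 10 kb rose. Txnrd1 measured 184 and 177 TPM in hyperoxia and 72.5 and 77.1 TPM in room air (log2 fold change 1.26 ± 0.06 SE, limma adjusted p = 9.58e-06). Gsr measured 60.1 and 55.7 TPM in hyperoxia and 25.2 and 31.7 TPM in room air (log2 fold change 1.01 ± 0.09, adjusted p = 1.29e-04). In both genes the hyperoxia libraries lay above the room-air libraries. Cat stood at 514 and 404 TPM in hyperoxia against 181 and 163 TPM in room air, and Ftl1 at 15353 and 13865 TPM against 8320 and 8638 TPM. Cat, Ftl1 and Osgin1 all passed the test (adjusted p 3.44e-05, 5.38e-04 and 0.0166). Of the 10 NRF2 genes with a member within 50 kb, 7 rose and 0 fell, and of the 10 without, 8 rose and 1 fell. The median log2 fold change was 0.81 for those with a member and 0.97 for those without. The Ftl1 call was lost under quantile normalization (log2 fold change 0.38, adjusted p = 0.112) and without the filter on low values (adjusted p = 0.088). The Osgin1 call was lost with only the B6 libraries in the fit (adjusted p = 0.101), without the hyperoxia library marked MF (adjusted p = 0.09) and without the room-air library marked F (adjusted p = 0.0788).

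Of the 20 macrophage identity genes tested 2 rose and 13 fell, and of the 7 with a member within 10 kb 6 fell. C1qb measured 1680 and 1230 TPM in hyperoxia and 2486 and 2022 TPM in room air (log2 fold change -0.64 ± 0.14 SE, limma adjusted p = 0.00818). Itgam measured 143 and 161 TPM in hyperoxia and 191 and 193 TPM in room air (log2 fold change -0.34 ± 0.08, adjusted p = 0.0116). Tyrobp measured 1506 and 1673 TPM in hyperoxia and 1800 and 1948 TPM in room air (log2 fold change -0.24 ± 0.08, adjusted p = 0.0426). The libraries of the 2 exposures did not overlap in these 3 genes, although the Tyrobp difference was small. Csf1r stood at 677 and 532 TPM in hyperoxia and 986 and 780 TPM in room air (adjusted p = 0.0092), and C1qc and Fcgr1 also fell (adjusted p 0.0103 and 0.00514). Trem2 did not pass the test (log2 fold change -0.07 ± 0.05, adjusted p = 0.367). Of the 15 macrophage genes with a member within 50 kb, 1 rose and 12 fell, with a median of -0.55. Of the 5 without, 1 rose and 1 fell, with a median of -0.02. The difference between these groups of genes was not tested. With only the B6 libraries in the fit the falls of C1qb, C1qc, Itgam, Tyrobp, Csf1r and Fcgr1 were not called. C1qb was also lost under quantile normalization (adjusted p = 0.0796), and Tyrobp without the filter on low values (adjusted p = 0.123). The calls of C1qb, C1qc, Csf1r, Itgam and Tyrobp were also lost when some B6 library was left out.

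Of the 30 cell-cycle genes tested 28 fell and 1 rose. Ccna2 measured 2.92 and 2.56 TPM in hyperoxia and 19.2 and 12.1 TPM in room air (log2 fold change -2.125 ± 0.18 SE, limma adjusted p = 8.62e-05). Nuf2, which encodes a kinetochore protein, measured 1.14 and 0.476 TPM in hyperoxia and 7.71 and 4.97 TPM in room air (log2 fold change -2.02 ± 0.23, adjusted p = 3.65e-04). Dtymk, the thymidylate kinase gene, measured 8.49 and 6 TPM in hyperoxia and 20.8 and 12.9 TPM in room air (log2 fold change -1.09 ± 0.23, adjusted p = 0.00674). The exposures did not overlap in these genes, and in TPM the room-air libraries lay further apart than the hyperoxia libraries. Haus4, a gene of the mitotic spindle, Birc5 and Rrm1 fell as well. With only the B6 libraries in the fit the fall of Dtymk was not called (adjusted p = 0.0648). Of 10 cell-cycle genes with a member within 50 kb, 9 fell, and of 20 without, 19 fell and 1 rose.

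Of 38 tested p53 target genes, 14 rose and 7 fell. Cdkn1a measured 343 and 257 TPM in hyperoxia and 125 and 100.5 TPM in room air (log2 fold change 1.4 ± 0.13 SE, limma adjusted p = 1.29e-04). Mdm2 measured 120.3 and 106 TPM in hyperoxia and 52.8 and 50.2 TPM in room air (log2 fold change 1.12 ± 0.08, adjusted p = 3.44e-05). Trp53 itself was lower, at 35 and 27.9 TPM in hyperoxia and 52.9 and 45 TPM in room air (log2 fold change -0.62 ± 0.12, adjusted p = 0.00391). Of the 15 tested p53 targets with a member within 50 kb, 3 rose and 4 fell, and of the 23 without, 11 rose and 3 fell. Bax and Plk2, both within 10 kb of a member, rose (log2 fold changes 0.79 and 0.78), and Pidd1 did not pass (adjusted p = 0.0517). Rps27l, a ribosomal-protein-like gene whose human counterpart is a p53 target, has a member of 15 tags 84 bp before its start. It measured 128 and 121 TPM in hyperoxia and 96.2 and 82.3 TPM in room air (log2 fold change 0.48 ± 0.1, adjusted p = 0.00542). With only the B6 libraries in the fit, neither Trp53 (adjusted p = 0.0589) nor Rps27l (adjusted p = 0.0528) was called.

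Other genes with a member within 1 kb complete the largest changes. The long noncoding RNA gene Snhg15, whose member of 23 tags is printed above, measured 13.7 and 13.3 TPM in hyperoxia and 7.08 and 7.1 TPM in room air (log2 fold change 0.84 ± 0.09 SE, limma adjusted p = 3.36e-04). Hspa9, the mitochondrial HSP70 gene, Arhgap10 and the carbonyl reductase gene Cbr3 rose by 0.46, 0.43 and 0.42 on the log2 scale, and Rps19bp1 by 0.31. Kctd12 measured 18.8 and 21.1 TPM in hyperoxia and 72.1 and 79.9 TPM in room air (log2 fold change -1.88 ± 0.09, adjusted p = 9.58e-06). Mir5130 fell by 2.19 on the log2 scale. It shares its member with Kctd12, and that member lies 170 bp before the Mir5130 start and 165 bp before the Kctd12 start. Mir5130 (102982549 to 102982632) lies inside the Kctd12 transcript (102976581 to 102982637) on the same strand. Reads of these loci may therefore not be told apart, and their falls may not be separate. The interferon-inducible gene Mndal fell by 1.315 on the log2 scale, and the OCT2 transcription factor gene Pou2f2 by 1.11. Cbr3, Rps19bp1 and Pou2f2 were not called with only the B6 libraries in the fit. Of the genes nearest to the highest-scored members, Pltp fell (1124 and 1113 TPM in hyperoxia, 1597 and 1602 TPM in room air, adjusted p = 4.76e-04), while Cd84, Cd300a and Amn1 did not pass (adjusted p 0.991, 0.387 and 0.728). Mef2c, the gene with 8 nearest members, measured 15.4 and 13.3 TPM in hyperoxia and 33.7 and 23.7 TPM in room air (adjusted p = 0.00161).

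**Figure D5:**
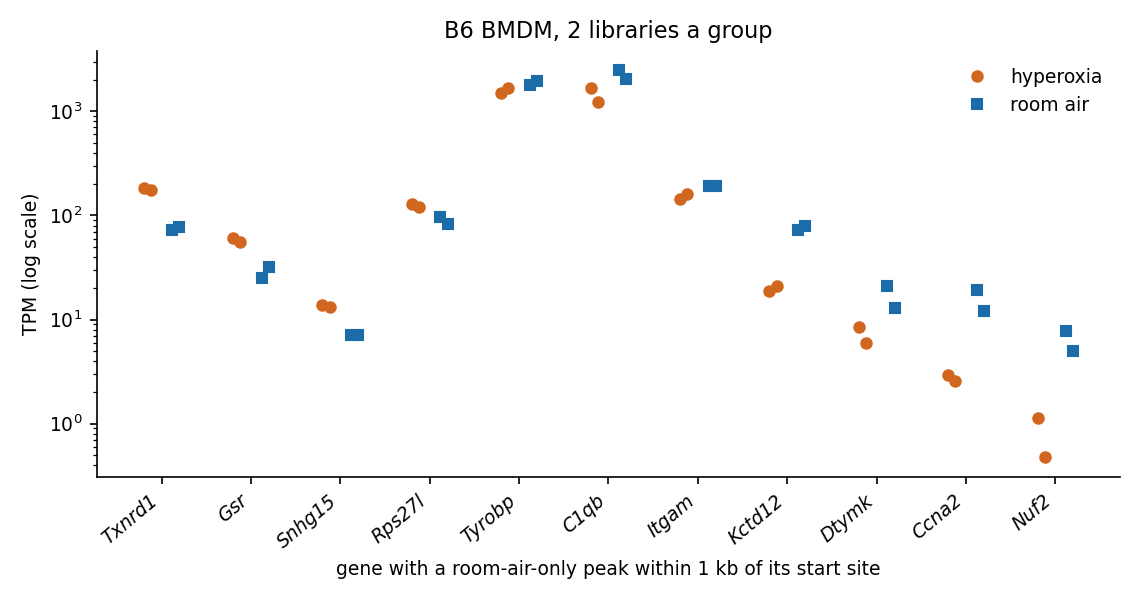
Expression in each B6 BMDM library (vertical axis, TPM, log scale) of 11 genes with a room-air-only peak within 1 kb of the start site, with 2 hyperoxia libraries (circles) left of 2 room-air libraries (squares). The hyperoxia libraries lie above the room-air libraries for Txnrd1, Gsr, Snhg15 and Rps27l and below them for the other 7 genes.

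The same genes were read in KO and DBA macrophages. In KO, 23.3% of all genes tested were called between hyperoxia and room air (6.88% higher, 16.4% lower), and 22 of the 305 genes at B6 members (7.21%) rose and 65 (21.3%) fell. In DBA, 18.8% of all genes were called (5.73% higher, 13% lower), and 12 of the 305 (3.93%) rose and 53 (17.4%) fell. Shares in both genotypes were near those of all genes tested. Under quantile normalization 35 of the member genes were higher and 48 lower in KO, against 1411 and 1471 of all genes, and 28 were higher and 46 lower in DBA, against 1123 and 1233 of all genes. All 5 stromal markers fell in both genotypes, in KO to sums of 24.7 to 32.2 TPM in hyperoxia against 87.9 to 110.2 TPM in room air. Neutrophil markers in KO summed to 8.38 to 10.99 TPM in hyperoxia against 49.3 to 93.6 TPM in room air, and all 4 that were tested fell (median log2 fold change -2.3), while 0 of 4 were called in DBA. The part of either marker list was not tested. Txnrd1 measured 252 and 256.5 TPM in KO hyperoxia and 83.1 and 73.2 TPM in KO room air, and 233.4 and 233.8 TPM in DBA hyperoxia and 98.9 and 102 TPM in DBA room air. C1qb measured 1982 and 1889 TPM in KO hyperoxia and 2795 and 2832 TPM in KO room air, and 204 and 195 TPM in DBA hyperoxia and 502 and 446 TPM in DBA room air. Ccna2 measured 1.49 and 1.44 TPM in KO hyperoxia and 2.96 and 2.45 TPM in KO room air, and 1.52 and 1.38 TPM in DBA hyperoxia and 4.67 and 5.24 TPM in DBA room air. All 3 genes passed in both genotypes by limma (adjusted p from 1.64e-06 to 0.0421). In KO the Ccna2 call was lost without the filter on low values, under quantile normalization, with the replicate block (adjusted p = 0.0618) and on leaving out any 1 of the 4 KO libraries (adjusted p from 0.0959 to 0.213). The C1qb call in KO was lost without the filter (adjusted p = 0.0504), under quantile normalization and on leaving out any 1 of these libraries (adjusted p from 0.0772 to 0.111). Dtymk did not pass in KO (adjusted p = 0.317) or DBA (adjusted p = 0.441), and the difference from B6 was not tested. When any 1 of the 4 KO libraries was left out, the median log2 fold change was -0.094 to -0.102 for the 305 genes. Over all genes it was -0.08 to -0.093. When any 1 DBA library was left out, the medians were -0.059 to -0.095 for the 305 genes and -0.046 to -0.087 over all genes.

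In room air, where the members were called, KO and B6 macrophages differed in 49.1% of all genes tested (33.9% higher, 15.3% lower in KO). Of the 305 genes at members, 107 (35.1%) were higher and 54 (17.7%) lower in KO, with a median log2 fold change of 0.12 against 0.14 over all genes. These shares were close to those of all genes. After quantile normalization 90 were higher and 80 lower, against 2872 and 2715 of all genes. Trem2 was lower in KO (log2 fold change -2.003 ± 0.05 SE, limma adjusted p = 2.35e-08), and so were Itgam (105 and 117 TPM in KO, 191 and 193 TPM in B6, adjusted p = 4.19e-05) and Tyrobp (1260 and 1298 TPM in KO, 1800 and 1948 TPM in B6, adjusted p = 2.91e-04). Csf1r was higher (1242 and 1309 TPM in KO, 986 and 780 TPM in B6, adjusted p = 0.00474). Of 30 cell-cycle genes 29 were lower in KO, Ccna2 among them, and all 5 stromal markers were higher. The part of these marker differences, of the date code or of the MF and F marks in the other values was not tested.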

How the data were processed

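The authors deposited 1 p53 peak list per group, called by HOMER on the pooled replicates at a false discovery rate of 0.001, with a 4-fold excess required over input and surroundings, per the file headers. The deposited peak score gives tags in a library scaled to a size of 10 M (mega), per the file headers. KO BMDM lists used the B6 input, per the file headers. Expression was deposited by the authors as TPM. STAR, Bowtie2, HOMER and mm10 are named in the submitters' processing notes, with no version in the sources used here. Reads were not analysed here, so peaks were not recalled and tags outside the listed intervals are not known.

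Members are room-air intervals with no base in a hyperoxia interval. Distances run from the interval centre to the start sites of all 24940 rows of the BMDM table. Log2(TPM + 1) of all 12 BMDM libraries entered 1 fit (limma 3.58.1, R 4.3.3, variance trend), for genes with at least 1 TPM in at least 2 libraries, and p-values were Benjamini-Hochberg adjusted over the 12320 genes in each of 4 comparisons. The fit was tested on simulated data. Intervals are exact binomial (95%) and cover counting error only. B6 RNA columns carry no replicate number that ties them to a title, so they were assigned to groups only. Estimated reads per library come from whole-read steps in the TPM (100% whole within 0.15). Motifs were searched on both strands of RefSeq windows, and peaks outside promoters have no sequence here.

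Members, gene lists and named genes were chosen with earlier results of these data known. Named are Trem2, Trp53, Cdkn1a and Mdm2, the nearest genes of the 10 highest-scored members within 10 kb, list genes with a member within 10 kb, and the called genes within 1 kb of a member with the 8 largest rises and the 8 largest falls (at least 5 TPM, groups not overlapping). Genes with the most nearest members, and Ccng1, were chosen after their values were seen.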

Additional observations from a re-analysis of the deposited data

Results flagged for a closer look

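Trem2 was slightly higher in hyperoxia in KO and slightly lower in B6 and DBA, and within each genotype the libraries of the exposures did not overlap. The log2 fold change was 0.0598 in KO, against -0.0653 in B6 and -0.0677 in DBA. Cd300a, near a member of 26 tags, had a log2 fold change of -0.143 in KO and 0.0238 in DBA, against -0.0546 in B6. These differences between genotypes were not tested. Except for Cd300a in KO (limma adjusted p = 0.0414), none of these changes passed the test within its own genotype. The Cd300a call in KO was lost under quantile normalization (adjusted p = 0.0561), with the replicate block (adjusted p = 0.076) and on leaving out any 1 of the 4 KO libraries (adjusted p from 0.144 to 0.196).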

How the results depend on the processing

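The number of members was 2036 when only scores at or above the median of the room-air list (13) were kept, and the shares within 1 kb and 10 kb of a start site were then 11.3% and 37.2%. A window of 50 kb gave 70.1%. Without unplaced sequences and the start of chromosome 9, an alternative chosen after seeing the data, 0.079% of members were in the KO hyperoxia list and 0.263% in the KO room-air list. Counting peaks within 500 bp gave 0.446% for the KO hyperoxia list. A half-interval overlap (3836 members) and the 500 bp rule (3774 members) moved no share beyond its interval, and the count of p53 full sites was 0 at every mismatch limit tried.

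Counts of called genes moved most. With only the 4 libraries of a comparison in the fit, B6 gave 1000 genes and 26 at members, and KO gave 4707 genes. At an absolute log2 fold change of at least 1, the counts were 386 and 11 in B6, 336 and 6 in KO, 274 and 9 in DBA, and 1128 and 23 for KO minus B6. Of 1131 member genes tested within 10 kb, 362 were called in B6 (32%), 302 in KO (26.7%) and 256 in DBA (22.6%). For KO minus B6 it was 578 (51.1%). The shares of all genes tested were 28.5%, 23.3%, 18.8% and 49.1%, in that order. Leaving out 1 library at a time gave 1966 to 3546 genes in B6 (58 to 93 at members), 1331 to 1467 in KO (32 to 36), 984 to 1923 in DBA (30 to 66) and 4418 to 5387 for KO minus B6 (125 to 148). Quantile normalization made the share of called genes that were lower 50.7% in B6, 51% in KO and 52.3% in DBA. Replicate numbers in KO and DBA are only numbers (correlation of deviations -0.05 and 0.08), and a replicate block gave 2407 genes and 70 at members in KO and 2347 and 69 in DBA. In B6 the marks MF and F recur in both exposures, and libraries with the same mark deviated together (correlation 0.38), but the labels do not say that a mark pairs them. The mark as a term, chosen after seeing the data, gave 4528 genes and 123 at members, kept all 33 named calls and added that of Pidd1. Of the named calls, 9 of 33 in B6 (C1qb, C1qc, Cbr3, Csf1r, Itgam, Osgin1, Pou2f2, Rps19bp1 and Tyrobp), 12 of 30 in KO and 8 of 28 in DBA were lost when some library was left out, and no named call reversed under any alternative run. Except where stated, the cause was not tested.

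Each list pools its replicates, so peaks have no replicate error, and a peak of 8 tags has a 95% Poisson interval of 3.45 to 15.8 tags. Absence from a list is therefore not absence of binding.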
